A study of Mus musculus with 24 samples.

Results

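The 6 metabotropic glutamate receptor (mGluR) genes Grm2, Grm3, Grm4, Grm5, Grm7 and Grm8 were followed through RNA-seq of the nucleus accumbens (NAc), the part of the ventral striatum known for reward. They were picked by name, without use of their values, from the 52636 genes in the count files, and all 6 had enough counts to be tested. The animals were C57BL/6 mice (C57BL/6J in the study's methods) of 50 days, in 4 groups of 6 with 1 library per mouse: females and males of the Con group, and females and males of the MSUS group. Con litters were left undisturbed. MSUS litters went through maternal separation with unpredictable maternal stress from postnatal day 1 to 14, for 2 h per day in the series' design text and for longer in the study's methods. The tissue was a bilateral punch of the NAc, from which total RNA was freed of ribosomal RNA, so that unspliced RNA stayed in the libraries. Neither source says which mice were littermates, and p-values measure the spread between these mice.

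The mGluRs are G protein-coupled receptors that tune synaptic transmission, unlike the ionotropic glutamate receptors, which are channels. Group I (here Grm5) couples to Gq and phospholipase C and sits mostly behind the synapse. Group II (Grm2 and Grm3) and group III (Grm4, Grm6, Grm7 and Grm8) couple to Gi/o, lower cyclic AMP and largely act on axon terminals, where they limit transmitter release. In the NAc they are known for shaping the excitatory input from cortex, thalamus and amygdala onto the striatal projection neurons.

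Between 39923666 and 70575745 read pairs per library were assigned to genes on the sense strand. A further 31.0% to 44.7% of the uniquely mapped pairs overlapped no annotated exon on the sense strand. This unassigned share takes in pairs from introns and from the antisense strand of genes. It ran from 31.0% to 34.8% in Con females and from 36.3% to 43.9% in MSUS females, with no overlap. In females it therefore cannot be told apart from the group. Males had 34.7% to 40.6% (Con) and 32.2% to 44.7% (MSUS). The 10 markers of striatal projection neurons were present in every library, with summed levels of 2241 to 6170 CPM (counts scaled to the library's total). The 10 markers of cortical excitatory neurons were also above 0 in every library, with sums from 204 to 1629 CPM. The cortical sum in females ran from 327 to 1612 CPM for Con (median 656) and from 204 to 791 for MSUS (median 283), and in males from 222 to 1185 for Con (median 402) and from 249 to 1629 for MSUS (median 426). Con female 3 and MSUS male 6 had the lowest striatal marker scores and stood apart from the other libraries. Library numbers 1 to 12 form set 1 and 13 to 24 set 2, as the labels number them, with 3 mice of each group in each set.

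Grm3 had the highest level per exon length of the 6 genes in the NAc and Grm8 the lowest. The mean over the 24 libraries was 66.1 FPKM (fragments per kilobase of exon, scaled to the library's total) for Grm3 (SD 6.04), a group II receptor found on neurons and astrocytes. It was 50.9 FPKM for Grm5 (SD 5.42), the group I receptor that couples to inositol phosphate signalling. The group III genes Grm7 and Grm4 followed at 21.5 FPKM (SD 2.42) and 17.5 FPKM (SD 2.62). Grm2, the other group II gene, had 1.33 FPKM (SD 0.895), and Grm8, of group III, had 0.984 FPKM (SD 0.367).

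Each gene in this order lay above the next in 24 of 24 libraries, except that Grm2 exceeded Grm8 in 14 of 24, so that the levels of these last 2 did not differ beyond their spread. Grm6, known from retinal bipolar cells, had at most 3 read pairs in any library and 6 in all, and was not tested. The order depended on the length in 2 places. With the longest annotated transcript in place of all exons, the mean log2 ratio of Grm3 to Grm5 fell from 0.38 to 0.033, and that of Grm2 to Grm8 went from 0.27 to −0.72.

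**Figure D1:**
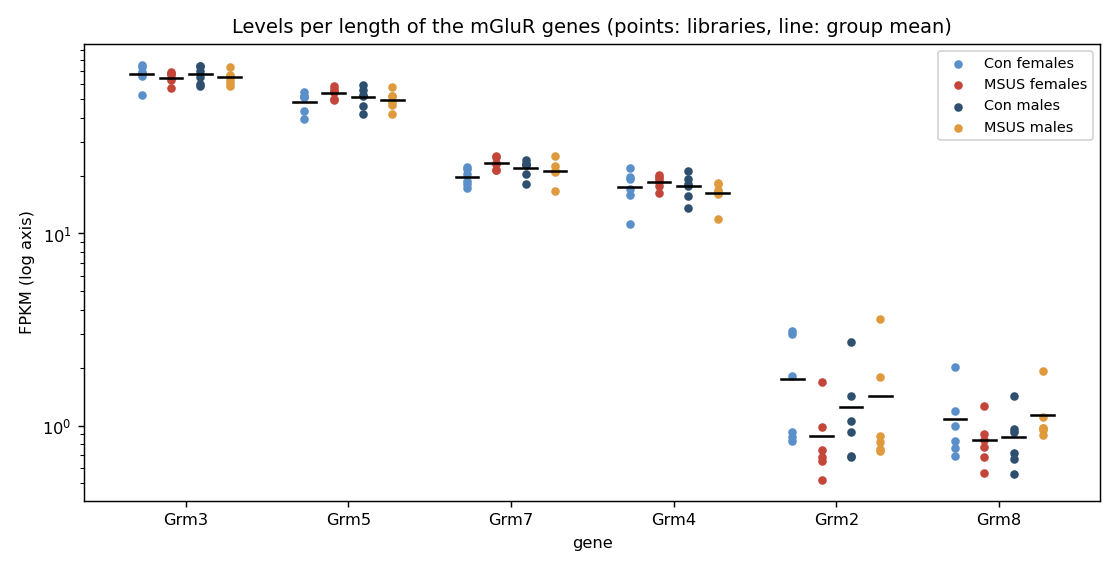
Levels per length in FPKM, on a log axis, of the 6 receptor genes, with 1 point per library, coloured by group, and a line at each group's mean. Grm3 at 66.1 FPKM and Grm5 at 50.9 FPKM stand at the top, and Grm2 at 1.33 FPKM and Grm8 at 0.984 FPKM at the bottom, where the libraries of a group also spread most.

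The spread between libraries was unequal among the 6 genes. Grm3 spanned a 1.44-fold range of normalized counts over the 24 libraries, Grm5 a 1.51-fold, Grm7 a 1.53-fold and Grm4 a 1.97-fold range. Grm8 spanned a 3.58-fold range and Grm2 a 6.87-fold range, from 135 counts in MSUS female 4 to 930.5 in MSUS male 6. Over the 24 libraries, Grm2 and Grm8 went up and down together, with a Pearson's r of 0.80 and a Spearman's rho of 0.62 between their log2 values. So did Grm3 and Grm4 (r = 0.84, rho = 0.83), Grm4 and Grm5 (r = 0.82, rho = 0.73) and Grm5 and Grm7 (r = 0.79, rho = 0.71). Against Grm4, Grm2 had an r of −0.75 and Grm8 an r of −0.88. These r are descriptions over libraries that share their tissue and depth.

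The start regions of 3 genes are printed, for Grm2 and Grm8, the genes with the widest spread, and for Grm7, the gene that passed the threshold below. Each runs 5′ to 3′ from 250 bases before to 50 bases after a RefSeq transcript start on GRCm38.p6, the assembly also called mm10, with CG dinucleotides in capitals. The Grm2 window is chr9:106656060-106656359 on the minus strand, the Grm8 window is chr6:28135097-28135396 on the minus strand, at the most upstream of its 3 listed starts, and the Grm7 window is chr6:110645348-110645647 on the plus strand, at the more downstream of its 2 listed starts.
Grm2: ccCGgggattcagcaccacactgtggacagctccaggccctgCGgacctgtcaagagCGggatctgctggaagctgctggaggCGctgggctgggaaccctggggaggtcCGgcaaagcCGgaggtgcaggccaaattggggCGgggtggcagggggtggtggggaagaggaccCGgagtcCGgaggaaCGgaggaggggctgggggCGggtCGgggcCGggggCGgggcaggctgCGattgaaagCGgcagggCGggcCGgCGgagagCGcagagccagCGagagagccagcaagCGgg
Grm8: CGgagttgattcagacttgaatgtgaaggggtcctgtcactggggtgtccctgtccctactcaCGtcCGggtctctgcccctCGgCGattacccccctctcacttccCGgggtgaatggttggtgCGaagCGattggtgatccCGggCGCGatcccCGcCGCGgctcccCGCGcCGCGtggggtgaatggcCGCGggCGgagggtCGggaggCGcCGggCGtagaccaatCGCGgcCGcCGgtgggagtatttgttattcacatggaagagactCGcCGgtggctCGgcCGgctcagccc
Grm7: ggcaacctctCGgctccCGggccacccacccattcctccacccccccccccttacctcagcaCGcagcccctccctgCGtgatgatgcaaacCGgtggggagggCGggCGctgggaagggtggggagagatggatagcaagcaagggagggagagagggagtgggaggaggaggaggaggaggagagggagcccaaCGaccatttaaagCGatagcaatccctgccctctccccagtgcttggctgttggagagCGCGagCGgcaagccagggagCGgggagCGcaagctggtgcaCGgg
The Grm8 window holds 33 CG, the Grm2 window 22 and the Grm7 window 15, against a median of 7 over 32851 promoters of 300 bases. As many CG or more were found in 8.56%, 23.1% and 34.6% of those promoters. The windows not printed hold fewer, with 10 and 2 CG at the other Grm8 starts and 10 at the other Grm7 start (10 or more in 43.5% of promoters and 2 or more in 85.9%). The letters GGGCGG, searched on both strands, occur 4 times in the Grm2 window and 1 time in each of the other 2, and at least 1 time in 35.7% of all promoters. TATAAA (13.6% of all promoters) and ATGGCG (8.93%) are in none of the 3 windows. GGGCGG and ATGGCG each hold a CG that is also counted above. Grm3 had an entry too, with 11 CG, and Grm4 and Grm5 had none in the table used.

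Exposure to MSUS was compared with Con in each sex, the sexes were compared within Con and within MSUS, and the group-by-sex interaction asked whether the MSUS difference was unequal between the sexes. Genes were called at a Benjamini-Hochberg adjusted p under 0.10 over all genes tested by edgeR's quasi-likelihood test, the study's threshold. In females 1 of the 6 receptor genes was called, where 25.1% of 20571 genes were. In males 0 of 6 were called, with 0% of 20691 genes called, 191 genes at an unadjusted p under 0.05 and 0 genes by DESeq2. Between the sexes 0 of 6 were called in Con animals (2.64% of all genes) and 0 of 6 in MSUS animals (0.135%). The interaction called 0 of 6, with 0% of 21500 genes called by edgeR, 4031 at an unadjusted p under 0.05 and 467 called by DESeq2. For none of the 6 did the MSUS and Con females fail to overlap, as 7.19% of all genes did.

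Grm7, which encodes a low-affinity receptor of the presynaptic active zone, was the receptor gene that rose in MSUS females. It lies on chromosome 6 from 110645581 to 111567230 (ENSMUSG00000056755.13). In Con females its normalized count had a lowest value of 5337, a median of 6123 and a highest value of 6903. In MSUS females these were 6643, 7241 and 7918. All 6 values in MSUS exceeded the median in Con, while the ranges overlapped between 6643 and 6903. The log2 fold change was 0.24 (standard error 0.068, adjusted p = 0.0325 by edgeR), a 1.18-fold difference.

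In males Grm7 was not called. Its counts ran from 5644 to 7500 in Con males (median 7115) and from 5176 to 7822 in MSUS males (median 6613), and MSUS over Con was −0.044 on the log2 scale (standard error 0.091). The sex difference was −0.14 (standard error 0.081) in Con animals, with all 6 females below the male median, and 0.13 (standard error 0.082) in MSUS animals, with all 6 females above it. Neither passed. The interaction, the female minus the male MSUS difference, was 0.28 on the log2 scale (standard error 0.12, unadjusted p = 0.0272, adjusted p = 0.234 by edgeR). Without MSUS male 1 it was 0.34 (adjusted p = 0.0744 by edgeR), the only fit in which it passed.

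The Grm7 rise in females was past the threshold in all 12 fits that left out 1 mouse, with log2 fold changes from 0.20, without Con female 3 (adjusted p = 0.0455 by edgeR), to 0.27. Within library set 1 it was 0.24 (standard error 0.11) and within set 2 it was 0.24 (standard error 0.071), with adjusted p = 0.307 and 0.222 by edgeR on 6 mice each. With the cortical marker score as a covariate it was 0.15 (adjusted p = 0.232 by edgeR), and with the unassigned share as a covariate 0.12 (standard error 0.14, adjusted p = 0.827 by edgeR). Over the 24 libraries, log2 Grm7 counts went with the unassigned share, with r = 0.76 and rho = 0.77 (permutation p = 2e-05 and 3e-05, Benjamini-Hochberg adjusted 0.000171 and 0.000225 over 60 relations). Without the 2 libraries farthest from the median share r was 0.69, and it was 0.78 in set 1 and 0.77 in set 2. Within the groups of 6 it was −0.10 in Con and 0.59 in MSUS females, and 0.85 in Con and 0.87 in MSUS males. Grm7 also went with marker scores, with r = 0.77 for striatal projection neurons, −0.72 for interneurons and −0.66 for cortical excitatory neurons. For choroid plexus r was 0.66 and for oligodendrocytes −0.58 (adjusted permutation p of these from 0.000225 to 0.00702). The choroid plexus score rests on few counts, as its markers summed to 2.98 to 10.1 CPM and some were at 0 in some libraries. Without the 2 libraries farthest from the median score, the striatal r was 0.59 and the choroid plexus r 0.39. As the unassigned share did not overlap between MSUS and Con females, the fit with it as a covariate cannot divide the Grm7 difference between them. The part of the unassigned share or of these scores in the Grm7 difference was not tested.

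**Figure D2:**
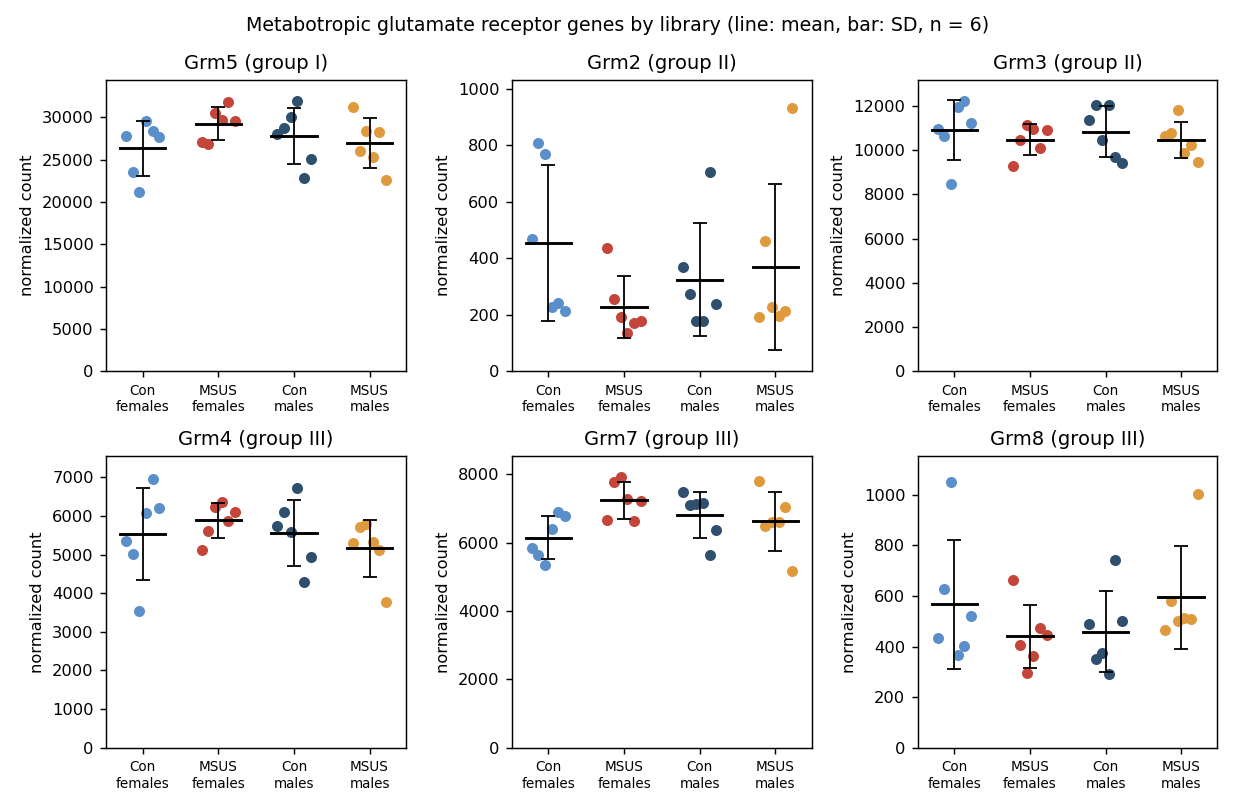
Normalized counts of the 6 receptor genes in each library, by group, with the mean (line) and SD (bar) of 6 mice. Grm7 is higher in MSUS than in Con females (medians 7241 and 6123), and in Grm2 and Grm8 single libraries reach 930.5 and 1049 counts.

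Grm5 had the largest counts of the 6 and was not called in any comparison. It lies on chromosome 7 from 87584168 to 88134907 (ENSMUSG00000049583.15). Its normalized counts ran from 21208 to 29604 in Con females (median 27716) and from 26840 to 31809 in MSUS females (median 29614). In MSUS 4 of 6 females exceeded the Con median, and the ranges overlapped between 26840 and 29604. The log2 fold change was 0.15 (standard error 0.077, adjusted p = 0.184 by edgeR), and it was 0.097 without Con female 3, the animal with the lowest count. With the cortical marker score as a covariate it was −0.0042. In males Grm5 had 22771 to 31937 counts in Con (median 28377) and 22567 to 31205 in MSUS (median 27132), with a log2 fold change of −0.045 (standard error 0.091). Over the 24 libraries Grm5 went with the scores of striatal projection neurons (r = 0.85), interneurons (−0.74), cortical excitatory neurons (−0.71), oligodendrocytes (−0.63) and choroid plexus (0.61). With the unassigned share r was 0.51 (adjusted permutation p of these from 0.000100 to 0.0227).

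Small gene models of unknown function inside the introns of Grm5 moved in females although its exons were not called. Of the 5 models tested there on the strand of Grm5 and outside its exons, all 5 were higher in MSUS females, with log2 fold changes from 0.74 to 0.88, in the background of 13.1% of all genes called higher. The model with the smallest p, Gm44847, had 420.2 ± 55.2 normalized counts in Con and 773 ± 105 in MSUS females (SD, n = 6), which is 0.88 on the log2 scale (standard error 0.10, adjusted p = 0.000879 by edgeR). Gm44846, the most abundant, had 542 ± 66.9 and 904.6 ± 139.9 counts. In males the 5 ranged from −0.031 to 0.16 on the log2 scale. The Con females had the lowest mean of the 4 groups for all 5. Con females over Con males gave −0.63 to −0.49 on the log2 scale, and 2 of the 5 were called in that comparison, Gm44847 (−0.50, adjusted p = 0.0738 by edgeR) and Gm44846 (−0.50, adjusted p = 0.0867 by edgeR), where 2.64% of all genes were. Their interaction terms were 0.67 to 0.85, with adjusted p of 0.200 to 0.273 by edgeR. Pairs from such a model and from unspliced Grm5 RNA cannot be told apart in these counts. As the 5 share this host and strand, they cannot be counted as independent genes beside the shares over all genes.

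Set against the exons of the same gene, the pairs on these 5 models made up 4.09% to 5.24% in Con females (median 4.41%) and 5.64% to 8.40% in MSUS females (median 7.01%) of the Grm5 exon pairs. The lowest MSUS value exceeded the highest Con value. The mean log2 ratio was 0.64 higher in MSUS females (exact two-sided permutation p = 0.00216, the smallest that 6 against 6 can give, adjusted p = 0.0130 over 6 tests). Without Con female 3 it was 0.68 (exact permutation p = 0.00433). The models were named after their values were seen and had been called higher in these mice, so these p-values are not separate support. Within library set 1 the difference was 0.77 and within set 2 it was 0.52, each with no overlap and an exact permutation p of 0.10, the smallest that 3 against 3 allows. In males the shares were 5.53% to 7.04% in Con, all above those of the Con females, and 4.56% to 9.40% in MSUS, a log2 difference of 0.030 (exact permutation p = 0.879).

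The Grm5 intronic share moved closely with the unassigned share of the libraries. Both can hold pairs of unspliced RNA, so they are not separate measures, and a relation between them may be partly built in. Over the 24 libraries r was 0.95 and rho 0.94 (permutation p = 1e-05 each, the smallest they can give, adjusted 1.5e-05 over 3 relations), and r was 0.92 without the 2 libraries farthest from the median share. It was 0.97 in set 1 and 0.91 in set 2, and within the groups of 6 it ran from 0.71 in Con females to 0.95 in MSUS males. The single model tested inside Grm3, Gm42455, was also higher in MSUS females (log2 fold change 0.79, standard error 0.20, adjusted p = 0.0221 by edgeR) and lower in Con females than in Con males (−0.70, adjusted p = 0.0895 by edgeR). Also higher in MSUS females was Gm20386 inside Grm7 (log2 fold change 0.78, standard error 0.23, adjusted p = 0.0380 by edgeR). Unlike the models in Grm5 and Grm3, it is annotated as a processed pseudogene, and it had a mean of 41.5 read pairs per library. Relative to their hosts' exons, the log2 difference in females was 0.81 for Grm3 (exact permutation p = 0.0173, adjusted 0.0519) and 0.53 for Grm7 (exact permutation p = 0.0584, adjusted 0.117). Here too the models had been called higher in the same mice, so these p-values are not separate support. In Con females the Grm3 share was 0.301% to 0.739%, with Con female 3 the highest, and without this animal the difference was 0.98 (exact permutation p = 0.00433).

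**Figure D3:**
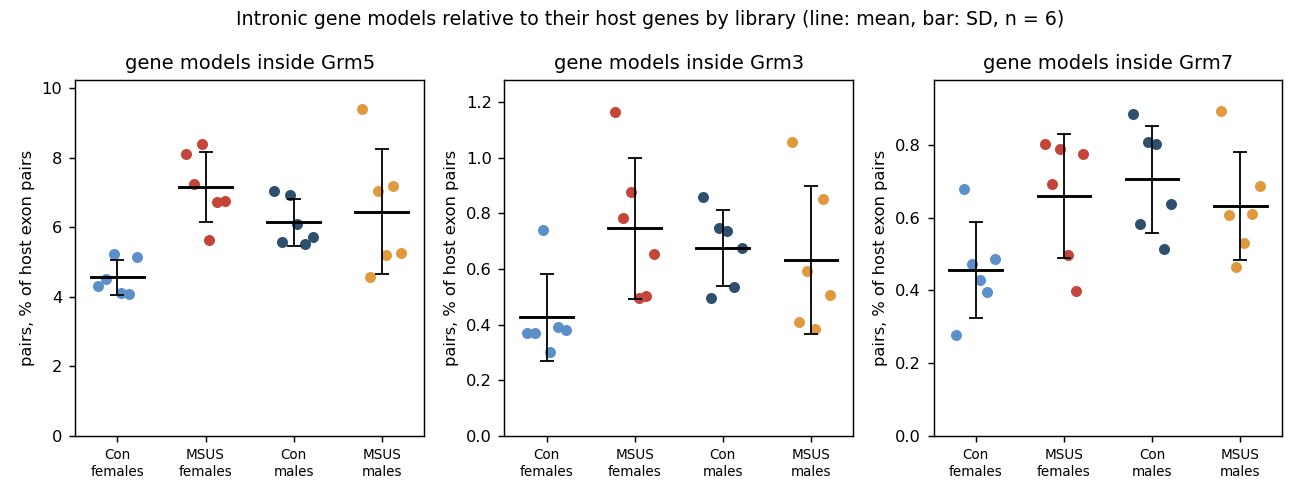
Read pairs on gene models inside the introns of Grm5, Grm3 and Grm7, as a percentage of the pairs on the host gene's exons, in each library, with the mean (line) and SD (bar) of 6 mice per group. For Grm5 the 6 MSUS females lie between 5.64% and 8.40%, all above the 6 Con females at 4.09% to 5.24%, while the 2 groups of males overlap.

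Grm2, an inhibitory autoreceptor on excitatory terminals, had the largest fold change of the 6 in females and did not pass. It lies on chromosome 9 from 106643095 to 106656082 (ENSMUSG00000023192.12). Con females had counts of 214, 227, 241, 467, 769 and 807, so that 3 were low and 3 high. MSUS females had 135, 170, 178, 192, 255 and 437. In MSUS 5 of 6 were under the median of Con, with overlapping ranges. The log2 fold change was −0.99 (standard error 0.42, adjusted p = 0.126 by edgeR). DESeq2 called the gene (−0.99, adjusted p = 0.0831 by DESeq2), and so did edgeR without Con female 4, without Con female 6 or without MSUS female 1 (−1.29). Without Con female 3 the value was −0.78 (adjusted p = 0.245 by edgeR).

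In males the Grm2 difference was not called, and its direction depended on the library. Con males ran from 177 to 704.7 counts (median 257) and MSUS males from 191 to 930.5 (median 221), so that the medians and the log2 fold change of 0.20 (standard error 0.48) differ in direction. In MSUS 4 of 6 males were under the Con median. Without MSUS male 6 the log2 fold change was −0.32, and without Con male 5 it was 0.58. Within library set 1 it was −0.99 and within set 2 it was 1.20. The interaction was −1.19 (standard error 0.66, adjusted p = 0.322 by edgeR), and the sex differences were 0.49 in Con and −0.71 in MSUS animals.

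Grm2 counts went with the cortical excitatory neuron markers in every group. Over the 24 libraries r and rho with the marker score were both 0.92 (permutation p = 1e-05 each, the smallest they can give, adjusted 0.000100 and 0.000150 over 60 relations), and r was 0.92 without the 2 libraries farthest from the median. It was 0.92 in each library set, 0.98 in Con and 0.88 in MSUS females, and 0.88 in Con and 0.92 in MSUS males. Grm2 also went with the scores of interneurons (r = 0.77), striatal projection neurons (−0.76), choroid plexus (−0.64) and oligodendrocytes (0.54). With the unassigned share its r was −0.48 (adjusted permutation p of these 5 from 0.000100 to 0.0348). Among the 10 cortical markers, 2 were called lower in MSUS females, Emx1 and Fezf2, both at −1.82 on the log2 scale, and the median of the 10 was −1.82. With 1 mouse left out, the number called was 7 without MSUS female 1, 2 to 3 without Con female 4, 5 or 6, and 0 without any 1 of the other 8 mice, with medians from −2.66 to −1.35. With the cortical score as a covariate the log2 fold change of Grm2 in females was 0.044 (standard error 0.21, adjusted p = 0.934 by edgeR). With the unassigned share as a covariate it was −1.87 (standard error 0.95). Fewer cells of a type in a punch and less RNA per cell cannot be told apart in such bulk libraries. The protein-coding genes most like Grm2 over the 24 libraries were Igsf21, Etl4 and Khdrbs3, each with an r of 0.98.

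**Figure D4:**
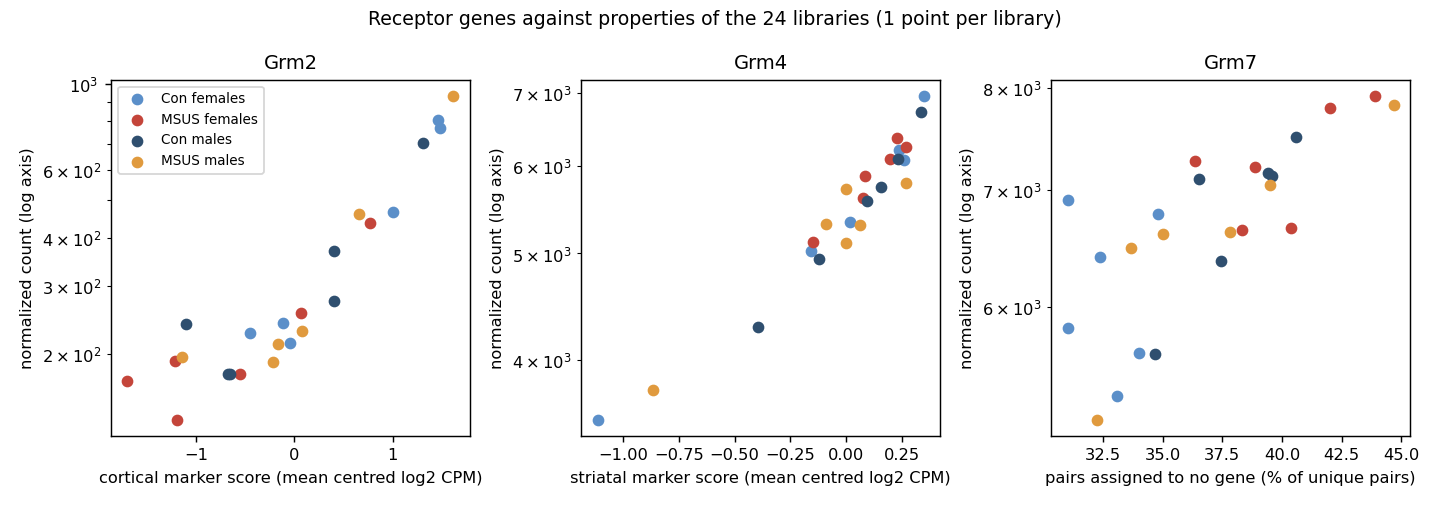
Normalized counts (log axis) of Grm2 against the cortical marker score, of Grm4 against the striatal marker score and of Grm7 against the share of unassigned pairs, with 1 point per library, coloured by group. Grm2 rises with the cortical score (r = 0.92) and Grm4 with the striatal score (r = 0.97) in libraries of all groups, and for Grm7 (r = 0.76) the Con females lie at the low end of the unassigned share.

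Grm8, a presynaptic group III receptor, had the second widest spread. It lies on chromosome 6 from 27275119 to 28135178 (ENSMUSG00000024211.15). Con females ran from 366 to 1049 counts (median 478), with Con female 3 the highest, and MSUS females from 296 to 661 (median 425). The log2 fold change in females was −0.36 (standard error 0.27, adjusted p = 0.371 by edgeR), and without Con female 3 it was −0.092. In males it was 0.38 (standard error 0.24), with 293 to 741 counts in Con (median 431) and 467 to 1002.5 in MSUS (median 510). All 6 MSUS males lay above the Con male median. Without MSUS male 6, the highest library, the difference was 0.16. The interaction was −0.74 (standard error 0.38, adjusted p = 0.288 by edgeR). Log2 Grm8 counts fell as the striatal marker score rose, with r = −0.89 and rho = −0.81 (permutation p = 1e-05 each, the smallest they can give, adjusted 0.000100 and 0.000150), and r was −0.79 without the 2 libraries farthest from the median. Within the 4 groups this r lay between −0.95 and −0.92, and it was −0.89 in set 1 and −0.90 in set 2. Grm8 also went with the scores of cortical excitatory neurons (r = 0.69), interneurons (0.67), choroid plexus (−0.66) and oligodendrocytes (0.51). The adjusted permutation p of these ran from 0.000738 to 0.0244. Vsnl1 and Elavl4 (r = 0.95 each) and Slc9a9 (r = 0.93) were most like it.

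Grm4, a group III receptor present on terminals of striatal projection neurons, was not called in any comparison and went with the markers of those neurons. It lies on chromosome 17 from 27422387 to 27521403 (ENSMUSG00000063239.16). Its counts in females were 3533 to 6951 for Con (median 5713) and 5119 to 6366 for MSUS (median 5988). In males they were 4291 to 6714 for Con (median 5663) and 3759 to 5798 for MSUS (median 5309). The lowest values of the female and male groups were those of Con female 3 and MSUS male 6. Log2 fold changes for MSUS were 0.094 in females (standard error 0.13) and −0.11 in males (standard error 0.12), and that in females was −0.0064 without Con female 3. The female over male difference was 0.18 in MSUS animals (standard error 0.091, adjusted p = 0.667 by edgeR) and −0.00089 in Con animals. Over the 24 libraries, r with the striatal score was 0.97 and rho 0.94 (permutation p = 1e-05 each, the smallest they can give, adjusted 0.000100 and 0.000150), and r was 0.95 without the 2 libraries farthest from the median. It was 0.96 in set 1, 0.98 in set 2 and 0.96 to 0.99 within the groups. Grm4 also went with the scores of cortical excitatory neurons (r = −0.63), oligodendrocytes (−0.62), choroid plexus (0.56) and interneurons (−0.49). The adjusted permutation p of these ran from 0.00237 to 0.0303. Without the 2 libraries farthest from the median score, the choroid plexus r was 0.068. Bcr, Ankrd63 and Gng7 were most like Grm4 (r = 0.99, 0.98 and 0.98).

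Grm3 had the narrowest range of counts of the 6 over the 24 libraries. It lies on chromosome 5 from 9485541 to 9725170 (ENSMUSG00000003974.6). Its counts in females ran from 8475 to 12239 for Con (median 11091) and from 9278 to 11126 for MSUS (median 10691), and in males from 9416 to 12055 for Con (median 10909) and from 9470 to 11806 for MSUS (median 10429). The groups overlapped throughout. The log2 fold changes were −0.056 in females, −0.053 in males, 0.018 between the sexes in Con animals and −0.0014 in MSUS animals, with standard errors of 0.059 to 0.092. Without Con female 3 the value in females was −0.12 (standard error 0.051, adjusted p = 0.126 by edgeR). With the cortical score as a covariate it was −0.18 (standard error 0.073, adjusted p = 0.150 by edgeR). The r of Grm3 with the striatal score was 0.84 and rho 0.89 (permutation p = 1e-05 each, the smallest they can give, adjusted 0.000100 and 0.000150), and r was 0.84 without the 2 libraries farthest from the median, 0.88 in set 1 and 0.78 in set 2. Tgfa, Scn4b and Phactr1 were most like Grm3 (r = 0.93 each). For Grm5 the nearest were Id4, Cyld and Mctp1 (r = 0.96, 0.95 and 0.95), and for Grm7 they were Xkr6, Gabpb2 and Focad (r = 0.95, 0.93 and 0.93).

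**Figure D5:**
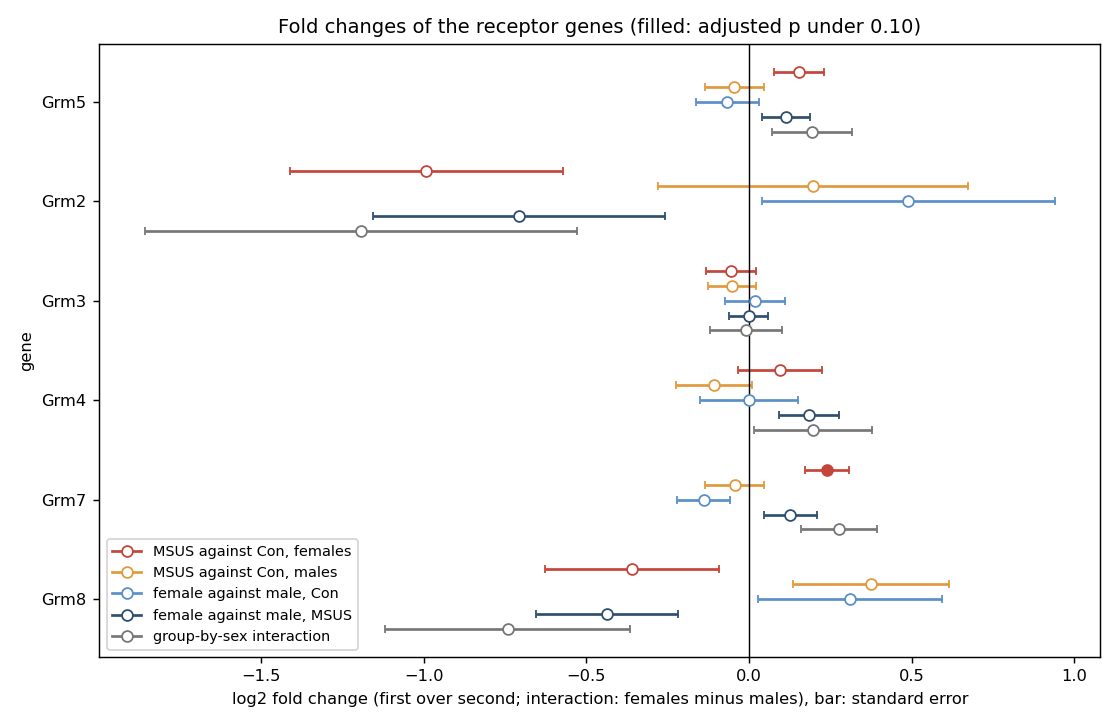
Log2 fold changes of the 6 receptor genes in the 5 comparisons, with bars for the standard error and filled points for an adjusted p under 0.10. The single filled point is Grm7 in females (0.24), and the bars of Grm2 and Grm8 are the widest.

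As a share of the summed FPKM of the 6 receptor genes, Grm3 made up 43.2% ± 0.922 for Con and 39.9% ± 1.02 for MSUS females (SD, n = 6). The ranges, 42.1% to 44.6% and 38.5% to 40.8%, did not overlap, while the counts of Grm3 itself did. Among all genes, the counts of 7.19% did not overlap in females, and no such background was made for shares of a sum. Over the same animals Grm5 had 31.1% ± 1.20 and 33.2% ± 1.62, and Grm7 12.7% ± 0.712 and 14.3% ± 0.899. In males the Grm3 share was 42.0% ± 1.43 in Con and 42.0% ± 1.75 in MSUS. Shares of one sum move against each other, so which gene sets such a shift cannot be told apart, and the shift was not tested.

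Of 17 genes for proteins that bind or regulate mGluRs, 3 fell and 0 rose in MSUS females, where 11.9% of all genes were called lower and 13.1% higher. The 17 had a median log2 fold change of −0.10 against −0.0027 over all genes. They were Grk2 (−0.26), a kinase that phosphorylates active receptors, Cyth2 (−0.26), an exchange factor for ARF proteins, and Elfn1 (−0.20), a synaptic adhesion protein that binds group III receptors across the cleft. The Homer and Shank scaffolds of group I receptors were not called, with values from −0.52 for Homer2 to 0.12 for Homer1.

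The calls among the messengers below the receptors were also to lower levels. Of 10 genes of group I signalling, 2 fell in MSUS females, Plcb1 (−0.19), a phospholipase C, and Dgkz (−0.37), which clears diacylglycerol, and the median was −0.19. Of 11 genes of group II and III signalling, 4 fell, Gnao1 (−0.20), the alpha subunit of Go, Gnb1 (−0.20) and Gng3 (−0.32), a beta and a gamma subunit, and Kcnj9 (−0.56), a potassium channel opened by them. The median of these 11 was −0.20. The 6 falls among 21 genes stand beside 11.9% of all genes called lower.

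Genes that move or make glutamate gave 1 rise and 3 falls among 10 in MSUS females, beside the same 13.1% higher and 11.9% lower over all genes. Slc7a11 (0.32), the cystine and glutamate exchanger of astrocytes, rose. Slc17a6 (−0.69), a vesicular glutamate transporter, Slc1a2 (−0.13), the main glial uptake carrier, and Glul (−0.15), glutamine synthetase, fell. Among 16 ionotropic receptor genes 2 rose, the AMPA subunit Gria2 (0.11) and the kainate subunit Grik2 (0.32), and 3 fell, the NMDA subunits Grin1 (−0.12) and Grin2c (−0.19) and the kainate subunit Grik5 (−0.12), with a median of 0.0098. These 5 calls among 16 stand beside 25.1% of all genes called in either direction. Outside the female comparison, 0 genes of these lists were called, where the smallest adjusted p was 0.188 by edgeR, for Elfn2 between the sexes in Con animals. In the female comparison 0 genes of any list were called with the unassigned share as a covariate, as 0 were among all genes, and 0 within either library set. With the cortical marker score as a covariate, 1 gene each was called among partners, group I signalling, group II and III signalling and ionotropic receptors. Among transport and metabolism genes it was 0, where 2164 of all 20571 genes were called. The counts also moved with single mice. With 1 mouse left out, the 3 calls among partners became 2 to 5 (5 without MSUS female 1). The 2 calls of group I signalling became 1 without Con female 2 or MSUS female 3, 4 or 5, and 4 without Con female 3. The 4 of group II and III signalling became 3 to 7 (7 without MSUS female 1). The 4 of transport and metabolism became 1 without MSUS female 2, 3, 4 or 5, 2 without Con female 1 or 5 and at most 5. The 5 among ionotropic receptors became 2 without Con female 2 or MSUS female 3 or 5, 3 without Con female 5 or MSUS female 2, and 7 without Con female 3.

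Some markers of other cell types also fell in MSUS females, again with 11.9% of all genes called lower. Lower levels were called for 4 of 6 oligodendrocyte markers (−0.23 to −0.30), 2 of 6 astrocyte markers (Aldoc −0.16, Aldh1l1 −0.11), 2 of 6 interneuron markers (Sst −0.39, Pvalb −0.85) and 1 of 4 markers of oligodendrocyte precursors (Olig1 −0.19). With 1 mouse left out, the oligodendrocyte calls numbered 2 (without MSUS female 3) to 6 and the precursor calls 1. The astrocyte calls numbered 0 (without MSUS female 2 or 3) to 2. The interneuron calls numbered 0 (without Con female 2 or 3 or MSUS female 2, 3, 4 or 5) to 3. With the cortical score as a covariate, 1 oligodendrocyte marker was called and 0 astrocyte, interneuron or precursor markers. With all mice, none of the 10 striatal, 5 microglial or 4 endothelial markers was called, with list medians of 0.086, 0.021 and −0.12. The oligodendrocyte markers summed to 2242 to 2753 CPM in MSUS females and 2316 to 3462 CPM in Con females, and the astrocyte markers to 1024 to 1123 and 1069 to 1119 CPM. Between the sexes, 1 marker was called, Opalin of the oligodendrocytes, which among MSUS animals was lower in the females (−0.34). The choroid plexus markers Ttr and Folr1 were at 0 in some libraries. The part of these markers in the receptor values was not tested.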

How the data were processed

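RNA-seq counts were taken from 24 NAc libraries. The authors trimmed adapters, aligned read pairs to mm10 with STAR (version 2.6.1b in the submitters' processing notes) and counted uniquely mapped pairs on GENCODE M15 genes. They deposited these raw counts without normalization, and the authors' counts for the sense strand were used. Pairs assigned to no gene were kept out of library sizes and tests.

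Genes were filtered with edgeR 4.0.16 (filterByExpr, minimum count 10), TMM-normalized and tested with the robust quasi-likelihood F test in R 4.3.3, and p-values were Benjamini-Hochberg adjusted with a threshold of 0.10. The steps were tested on simulated data. Normalized counts are counts over DESeq2 1.42.0 size factors, and FPKM are TMM-scaled pairs per kilobase of GENCODE M21 exon on GRCm38, which matched 52489 of 52636 gene identifiers. A marker score is the mean of centred log2 CPM over a list. Standard errors are the log2 fold change divided by the root of F.

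Mice were compared by group within sex, by sex within group and for the interaction. The study's female model held the estrous cycle stage. Here none was used, since the labels leave stages out for some females and give them to males. The genes and lists were chosen with earlier results of these data known. Some list genes are not reported here. Named are the 6 receptor genes, list genes past the threshold (at most 6 per list) or otherwise those of smallest p, and the 3 protein-coding genes with the highest r to each receptor gene. Homer1, Homer2 and the intronic models were named after their values were seen. Exact permutation tests compared shares between groups, and 100000 permutations tested relations across libraries. The alternatives were DESeq2, its size factors, other filters, unstranded counts, a replicate block, library set, spliced share (splice events per uniquely mapped pair, from the study's library metrics), unassigned share, cortical score, offsets for GC content and length, all 24 libraries, a threshold of 0.05 and each mouse left out. Added after the data were seen were fits within library sets and without Con female 3 and MSUS male 6. Over 60 pairs of libraries within groups the lowest chi-square per gene was 5.88, so none were copies within sampling noise.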

Additional observations from a re-analysis of the deposited data

Results flagged for a closer look

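In 36 groups of 6 values the highest or lowest library was set against the rest, and 5 lay apart by Dixon's criterion, where chance gives about 1 in 20 groups. Grm2 in Con males reached 704.7 normalized counts in Con male 5 (a gap to the next library of 0.636 of the group's range), the library with the highest cortical marker score of that group. In MSUS males, MSUS male 6 held 3 such values. Its Grm2 count was 930.5 (0.634), its Grm8 count 1002.5 (0.792) and its Grm4 count, the lowest of the group, 3759 (0.664). The pairs on the gene model inside Grm3 made up 0.739% of its exon pairs in Con female 3 (0.794), above the other Con females. MSUS male 6 and Con female 3 were the libraries with the lowest striatal marker scores, −0.87 and −1.12, where the medians of their groups were 0.0012 and 0.13. What sets these libraries apart was not tested.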

How the results depend on the processing

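Of 906 values of the 6 genes under alternatives, 895 kept their side of the threshold, 5 lost a call, 6 gained one and 0 calls reversed, while 80 values that were not called changed sign. Only Grm7 in females was called to begin with, so all other values could only stay uncalled or gain a call. Fits without Con female 3 and MSUS male 6 repeat fits with 1 mouse left out wherever 2 groups were compared, and both are counted. In females the number of receptor genes called was 2 with DESeq2 and with the replicate block, in each case Grm7 and Grm2, and 1 to 2 with 1 mouse left out. It was 0 with spliced share, unassigned share or cortical score as a covariate, and 0 within library set 1 and within set 2, where Grm7 lost its call. In the interaction it was 0 to 1 with 1 mouse left out, the 1 being Grm7 without MSUS male 1. In the other 3 comparisons it was 0 in every fit that left out a mouse.

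Replicate numbers did not pair the mice. Correlations of same-numbered deviations ran from −0.24 to 0.25 in females, and 2 of 6 mice correlated best with their own number. With the replicate block the log2 fold change of Grm2 in females was −0.88 (adjusted p = 0.0897 by edgeR) and that of Grm7 0.24 (0.0897), and 12 genes in all were called between the sexes in Con animals, against 544 without the block. In females it left 1 call among transport and metabolism genes (4 without it), 2 among ionotropic receptor genes (5) and 2 among oligodendrocyte markers (4), and gave 4 among cortical markers (2).

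With the longest transcript as length, the mean FPKM of Grm5 was 64.8, of Grm7 30.1, of Grm4 22.7 and of Grm8 2.03. Over all genes, the female count of 5156 was 3126 at a threshold of 0.05, 2164 with the cortical score, 3157 with GC and length offsets, 0 with spliced or unassigned share, 23 and 0 within the sets, and 3102 (without MSUS female 3) to 5737 with 1 mouse left out. Within set 1 it was 1 in males. The count of 544 between the sexes in Con animals was 1511 with DESeq2, 1362 unstranded, 338 unfiltered, 32 at 0.05, 10 with spliced share, 11 with unassigned share, 46 with cortical score and with GC offsets, 62 with all 24 libraries, 6 and 8 within sets, and 20 to 1395 with 1 mouse left out. The count of 28 in MSUS animals was 167 with DESeq2, 71 with library set, 16 with 10 counts in every library, 7 and 10 within sets and 14 to 64 with 1 mouse left out. The interaction count of 0 was 467 with DESeq2, 428 within set 2 and 3031 without MSUS male 1. Grm2 and Grm8, with counts down to 135 and 270 pairs in a library, were the least precise of the 6 genes. Of the gene lists in females, partners had 6 calls with DESeq2 and unstranded (3 in the fit as reported) and 1 with GC and length offsets, group I signalling 4 with DESeq2, 5 unstranded and 0 with all 24 libraries (2), and transport and ionotropic genes 1 each with the offsets (4 and 5) and 2 and 1 with all 24 libraries. The cause of these shifts was not tested.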
